A study of Mus musculus with 6 samples.

Results

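Liver sinusoidal endothelial cells line the blood capillaries between the plates of hepatocytes, and 10 genes that mark them were compared between livers of mice after vertical sleeve gastrectomy (VSG) and after a sham operation. The 10 genes were chosen by symbol as known markers of this cell type, with earlier results of these data known. They were Stab1, Stab2, Lyve1, Clec4g, Kdr, Pecam1, Oit3, Fcgr2b, Flt4 and Gpr182. All 10 were found among the 55385 genes of the deposited count table, and all 10 passed the filter on low counts that left 14454 genes for testing. The samples were whole livers of male C57BL/6 mice, wild type by the study's methods, 3 sham-operated and 3 VSG-operated, with 1 liver per library and about 40 mg of tissue each. Mice of 6 to 8 weeks were given a high-fat diet (HFD) for 10 weeks, underwent the operation, and stayed on the HFD for a further 12 weeks, so both groups carried the diet and an operation and differed in the removal of most of the stomach. Poly(A) RNA was sequenced with strand-specific libraries. Because whole tissue was measured, fewer endothelial cells and less RNA per endothelial cell cannot be told apart.

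The endothelium of the sinusoid is unusual in that it is pierced by open pores, the fenestrae, and rests on very little basement membrane, so that plasma reaches the hepatocytes almost freely. Its cells take up waste from the blood through scavenger, lectin and Fc receptors, which makes them the main site of clearance for hyaluronan and small immune complexes. They depend on vascular endothelial growth factor (VEGF), much of it from hepatocytes, and in chronic liver injury they can lose fenestrae and take on features of continuous capillaries, a change called capillarization. Of the 10 markers, Stab1, Stab2, Lyve1, Clec4g, Fcgr2b, Oit3, Flt4 and Gpr182 are enriched in these cells within the liver, while Kdr and Pecam1 are found in most endothelium. Macrophages can also express Stab1, Lyve1, Fcgr2b and Pecam1, and neutrophils and platelets carry Pecam1.

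None of the 10 markers passed the test between VSG and sham livers (0 of 10 at an adjusted p under 0.05, edgeR's quasi-likelihood test with Benjamini-Hochberg adjustment), where 14.7% of the 14454 tested genes did (2118 genes, 981 higher and 1137 lower after VSG). That background was smaller in some fits without 1 library, with 159 of 14839 tested genes called without sham liver 3 and 210 of 14781 without VSG liver 6. The markers' count of 0 stands beside a much lower background there. A fit without 1 library also has fewer livers, so a lost call need not trace to the library left out. The number at an unadjusted p under 0.05 was 0 of 10 as well, against 33.9% of all tested genes, and DESeq2 also called 0 of 10 against 19.3% of the genes it tested. The 2 groups of libraries overlapped for all 10 markers, whereas they did not overlap for 39.7% of the tested genes. On the log2 scale the median difference of the markers was 0.05, beside 0.03 over all tested genes, and the median size of the difference, sign aside, was 0.153 beside 0.324. The sign of the markers' median was not stable, at -0.080 with total counts alone, -0.082 without VSG liver 5 and 0.11 without VSG liver 6. On the log2 scale the widest 95% interval was that of Lyve1, which allowed a level after VSG of 0.428 to 1.24 times that of sham, and the narrowest that of Stab2, which allowed 0.893 to 1.30 times. The lowest level any of the 10 intervals allowed was that of Lyve1, and the highest was 1.96 times sham for Pecam1 (0.902 to 1.96). The scaling of the libraries affected the balance of calls over all genes, with 46.3% of them higher after VSG with TMM factors and 24.3% (486 of 1998) with total counts alone, a scaling that moved the median difference of all tested genes from 0.03 to -0.11 on the log2 scale.

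Stab1 and Stab2 encode the stabilins, large scavenger receptors that remove hyaluronan, modified lipoproteins and other waste from the blood. Levels of Stab1 in CPM, which are read counts scaled to a common library size with TMM factors, were 60.7, 61.4 and 70.4 in sham livers 1, 2 and 3, and 72.9, 77.9 and 51.1 in VSG livers 4, 5 and 6. The VSG group held both the highest and the lowest Stab1 value. The means were 64.2 ± 5.38 CPM for sham and 67.3 ± 14.2 CPM for VSG (SD, n = 3 each throughout), a log2 difference of 0.07 ± 0.17 (standard error throughout, adjusted p = 0.797). Stab2 was measured at 84.5, 85.2 and 104 CPM in the sham livers and at 99.2, 100.1 and 95.5 CPM in the VSG livers. Stab2 was the steadiest of the 10 markers, with a pooled SD within groups of 0.12 on the log2 scale, and sham liver 3 alone lay above every VSG value. Its means of 91.3 ± 11.2 and 98.3 ± 2.44 CPM differed by 0.11 ± 0.11 on the log2 scale (adjusted p = 0.534). The signs of both stabilins depended on the scaling, at -0.065 for Stab1 and -0.037 for Stab2 with total counts alone, and Stab1 was at -0.073 without VSG liver 5 and at 0.23 without VSG liver 6.

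Lyve1 is a hyaluronan-binding receptor of sinusoidal and lymphatic endothelium. It was measured at 26.4, 28.6 and 35.8 CPM in the sham livers and at 23.5, 30.6 and 11.9 CPM in the VSG livers. The low value in VSG liver 6 set Lyve1 apart as the most variable marker (pooled SD within groups 0.52 on the log2 scale), and VSG liver 5 lay within the sham range. The means were 30.3 ± 4.88 and 22.02 ± 9.43 CPM, and the log2 difference of -0.46 ± 0.32 was the largest in size of the 10 but did not pass the test (adjusted p = 0.349). Leaving out VSG liver 6 brought it to -0.16 (adjusted p = 0.607) and leaving out VSG liver 5 to -0.79 (adjusted p = 0.108).

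Fcgr2b encodes the inhibitory Fc gamma receptor, which in these cells takes up small immune complexes. Its values were 66.6, 74.0 and 76.0 CPM in the sham and 68.8, 84.8 and 68.8 CPM in the VSG livers. These groups lay almost on top of each other, with means of 72.2 ± 4.94 and 74.1 ± 9.25 CPM and a log2 difference of 0.04 ± 0.12 (adjusted p = 0.841), which was -0.10 with total counts alone, -0.023 without sham liver 1 and -0.091 without VSG liver 5. Clec4g encodes the C-type lectin LSECtin. It was measured at 28.8, 38.1 and 32.4 CPM in the sham and at 32.5, 45.5 and 34.1 CPM in the VSG livers, with means of 33.1 ± 4.73 and 37.4 ± 7.08 CPM. VSG liver 5 alone lay above the sham range, and the log2 difference was 0.18 ± 0.17 (adjusted p = 0.485), or -0.011 without that library. Oit3 encodes a secreted protein with a zona pellucida domain and was measured at 28.1, 34.0 and 38.4 CPM in the sham and at 27.6, 30.8 and 26.8 CPM in the VSG livers. Sham liver 1 lay among the VSG values, so the groups overlapped, and the means of 33.5 ± 5.19 and 28.4 ± 2.13 CPM differed by -0.24 ± 0.14 on the log2 scale (adjusted p = 0.255).

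Kdr and Flt4 encode related receptor tyrosine kinases of the VEGF family, Kdr being the main receptor for Vegfa and Flt4 that for Vegfc and Vegfd. Kdr was measured at 53.2, 65.7 and 61.4 CPM in the sham and at 52.7, 75.2 and 46.5 CPM in the VSG livers. The VSG values enclosed the sham values, the means were 60.1 ± 6.38 and 58.1 ± 15.1 CPM, and the log2 difference was -0.05 ± 0.19 (adjusted p = 0.878). Its sign turned without sham liver 2 (0.018), VSG liver 4 (0.019) or VSG liver 6 (0.091), and it was -0.30 without VSG liver 5. Flt4 was measured at 43.6, 38.6 and 72.4 CPM in the sham and at 42.9, 53.6 and 30.9 CPM in the VSG livers. Sham liver 3 held by far the highest Flt4 value, and the means of 51.5 ± 18.2 and 42.5 ± 11.4 CPM differed by -0.28 ± 0.29 on the log2 scale (adjusted p = 0.520). Without sham liver 3 the Flt4 difference was 0.040.

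Pecam1 is an adhesion molecule of endothelial junctions. It was measured at 30.6, 28.0 and 37.4 CPM in the sham and at 58.3, 32.0 and 37.5 CPM in the VSG livers. VSG liver 4 stood above the other 5 libraries, the means were 32.0 ± 4.84 and 42.6 ± 13.9 CPM, and the log2 difference was 0.41 ± 0.24 (adjusted p = 0.258). Without VSG liver 4 it was 0.12. That library also held the highest summed level of the Kupffer cell list and of the neutrophil list, and the part of these cells in the Pecam1 value was not tested. Gpr182 encodes an atypical chemokine receptor that binds chemokines without signalling through G proteins. It was measured at 23.3, 23.6 and 32.9 CPM in the sham and at 34.4, 31.2 and 21.7 CPM in the VSG livers, with means of 26.6 ± 5.50 and 29.1 ± 6.64 CPM. VSG liver 6 was the lowest and VSG liver 4 the highest of the 6, and the log2 difference was 0.13 ± 0.21 (adjusted p = 0.694), or -0.0068 with total counts alone and -0.0072 without VSG liver 4.

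**Figure D1:**
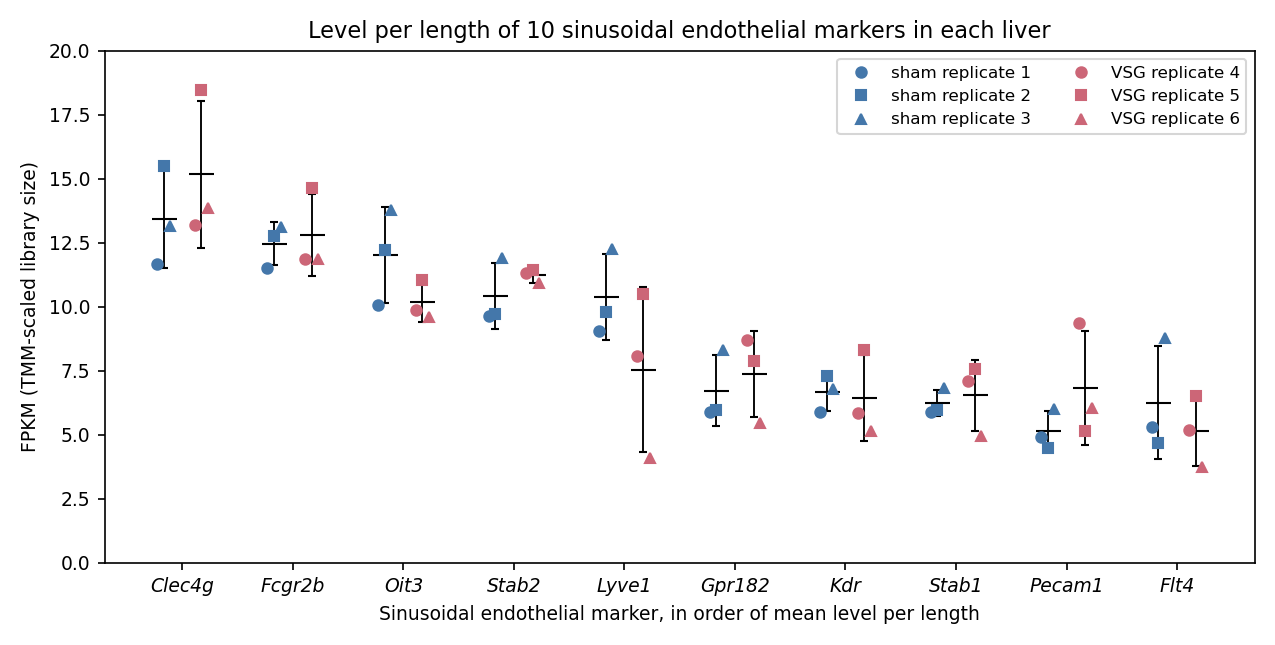
Level per length (FPKM, vertical axis from 0) of the 10 markers in each liver, blue for sham and red for VSG, with the group mean (dash) and SD (bar, n = 3). The sham and VSG points overlap for every marker, and the lowest Lyve1 point belongs to VSG replicate 6.

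Divided by exon length, as FPKM, which are CPM per kilobase of exon, the mean level over the 6 livers fell from 14.3 for Clec4g and 12.6 for Fcgr2b through 11.1 for Oit3, 10.8 for Stab2 and 8.96 for Lyve1. It continued with 7.04 for Gpr182, 6.54 for Kdr, 6.39 for Stab1, 5.99 for Pecam1 and 5.71 for Flt4. The ranges over the 6 livers overlapped for every neighbouring pair in this order, so no neighbours stood apart beyond their spread. The place of a marker moved most for Lyve1, which ranked from 4 to 9 within single livers, and for Pecam1, which ranked from 5 to 10. In no library was a marker at or near 0, since the counts ran from 250 reads to 2742 reads.

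**Figure D2:**
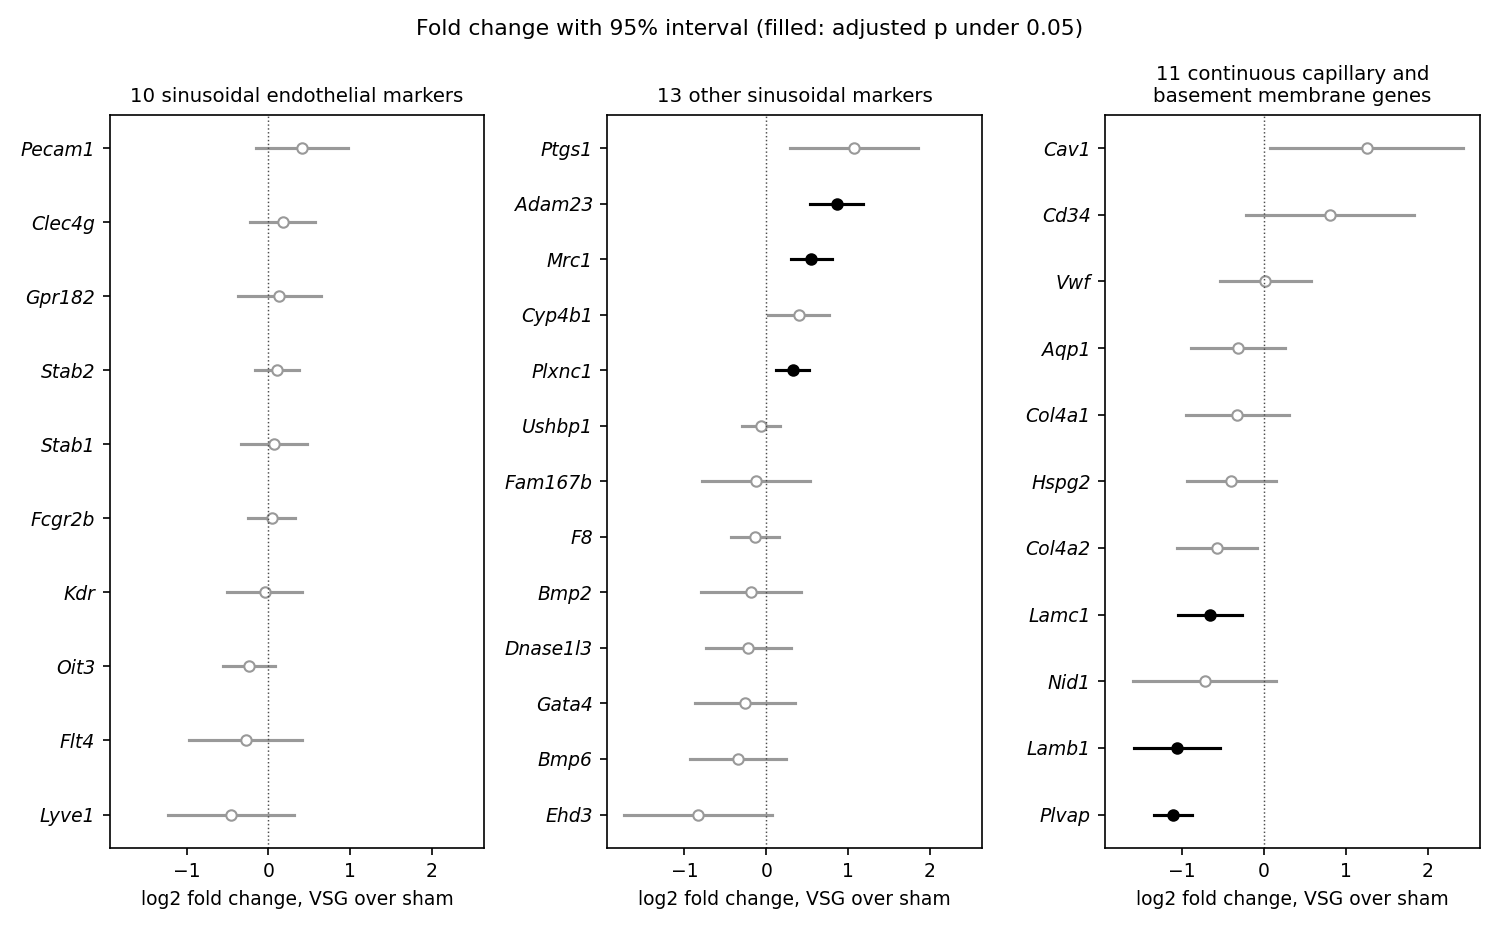
Log2 fold change (VSG over sham, horizontal axis) with its 95% interval for the 10 markers, 13 other sinusoidal markers and 11 genes of continuous capillaries and basement membrane; filled black points passed the adjusted p threshold. The intervals of all 10 markers include 0, while those of the called genes Adam23, Mrc1 and Plxnc1 and of the uncalled Ptgs1, Cyp4b1 and Cav1 lie above 0, and those of the called Plvap, Lamb1 and Lamc1 and of the uncalled Col4a2 below it.

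The genes lie on 7 chromosomes of the mouse build GRCm38 (mm10) and are all annotated as protein coding. Among them Stab2 (chr10:86841198-87008025, minus strand, 72 exon blocks), Oit3 (chr10:59422958-59441778, minus strand) and Gpr182 (chr10:127747276-127751732, minus strand) share a chromosome without being neighbours. Fcgr2b lies at chr1:170958617-170976547, Clec4g at chr8:3707064-3720651 and Pecam1 at chr11:106654217-106750628, all on the minus strand. Kdr lies at chr5:75932827-75978458 on the minus strand, Flt4 at chr11:49609263-49652739 on the plus strand, Stab1 at chr14:31139013-31168641 on the minus strand and Lyve1 at chr7:110850607-110863239 on the minus strand. The exons of 5 markers overlap those of a gene on the other strand, over 1.09% to 5.93% of their exon bases. The partners of Stab2, Clec4g and Fcgr2b were almost without counts, Nt5dc2 beside Stab1 averaged 6.48 CPM, and Zbtb39, which overlaps Gpr182 over 74 bases, averaged 18.6 CPM. The strand setting of the counting is not given in the sources used here, so reads in these overlaps cannot be assigned with certainty, and Fcgr2b also belongs to a family of similar Fc receptor genes.

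RefSeq start sites of build GRCm38.p6 gave a promoter window, from 250 bases before the start to 50 after it, for 6 of the 10 markers. The windows of the stabilins and of the VEGF receptors are shown because these are the 2 pairs of related genes among the markers, and their letters differ between the pairs. Capitals mark every match to the motifs searched, on either strand, and no matches of different motifs overlap in these windows. The motif of ETS factors, which act in endothelial genes, was searched as AGGAAG. That of GATA factors, of which Gata4 acts in sinusoidal endothelium, was searched as AGATAA. The usual letters of the TATA box, TATAAA, were searched as a sign of a focused start site. The GC box to which Sp factors bind was searched as GGGCGG.

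Stab1 (chr14:31168592-31168891, minus strand): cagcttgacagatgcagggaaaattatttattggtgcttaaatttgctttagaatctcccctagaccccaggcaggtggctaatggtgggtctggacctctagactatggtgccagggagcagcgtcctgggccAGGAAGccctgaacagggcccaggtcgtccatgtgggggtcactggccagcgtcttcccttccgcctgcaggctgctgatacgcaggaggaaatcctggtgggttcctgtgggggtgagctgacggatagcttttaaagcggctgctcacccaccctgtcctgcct
Stab2 (chr10:87007893-87008192, minus strand): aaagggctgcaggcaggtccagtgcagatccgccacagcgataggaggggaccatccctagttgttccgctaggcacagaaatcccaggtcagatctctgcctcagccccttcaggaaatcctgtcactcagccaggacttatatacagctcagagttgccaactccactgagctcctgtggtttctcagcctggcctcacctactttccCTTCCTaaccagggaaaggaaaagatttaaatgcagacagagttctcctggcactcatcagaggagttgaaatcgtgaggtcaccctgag
Kdr (chr5:75978406-75978705, minus strand): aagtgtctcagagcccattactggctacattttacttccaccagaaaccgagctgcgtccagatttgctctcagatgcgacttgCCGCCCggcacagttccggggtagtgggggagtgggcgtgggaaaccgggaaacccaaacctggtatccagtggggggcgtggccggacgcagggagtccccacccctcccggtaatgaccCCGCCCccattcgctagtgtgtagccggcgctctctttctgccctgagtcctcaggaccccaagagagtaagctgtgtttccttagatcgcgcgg
Flt4 (chr11:49609429-49609728, plus strand): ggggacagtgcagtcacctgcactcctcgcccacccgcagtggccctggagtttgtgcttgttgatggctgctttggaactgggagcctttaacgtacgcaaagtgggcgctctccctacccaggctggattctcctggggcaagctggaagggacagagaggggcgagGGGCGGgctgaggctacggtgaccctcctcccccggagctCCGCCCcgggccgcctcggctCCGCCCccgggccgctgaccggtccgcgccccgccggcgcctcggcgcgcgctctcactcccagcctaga

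AGGAAG was found in the windows of Stab1, Stab2 and Clec4g and not in those of Kdr, Flt4 and Fcgr2b, and 35.4% of all 32851 windows hold it. GGGCGG was found in those of Kdr and Flt4 alone among the 6, and 35.7% of all windows hold it. TATAAA was in the window of Clec4g alone (13.6% of all windows), and AGATAA was in none of the 6 (11.2% of all windows). Only these exact letters were searched, so a window without a match can still hold another form of a site. The VEGF receptor windows held 19 CpG dinucleotides (Kdr) and 26 (Flt4), the stabilin windows 7 (Stab1) and 4 (Stab2), and the median over all windows was 7.

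Most pairs of markers varied in the same direction from liver to liver. With TMM factors, sham liver 1 and VSG liver 6 lay below their own group's mean for 10 of 10 markers, while sham liver 3 and VSG liver 5 lay above it for 9 of 10. The place of sham liver 1, which had the largest TMM factor (1.15), depended on the scaling. With total counts alone, an alternative chosen after the data were seen, it lay below for 6 of 10 markers and above for Stab1, Stab2, Pecam1 and Fcgr2b, with a median deviation of -0.045. Under the same alternative sham liver 2 lay below for 9, sham liver 3 above for 10, VSG liver 5 above for 9 and VSG liver 6 below for 10 of 10. With TMM factors the median deviation of the 10 markers was -0.17 on the log2 scale in sham liver 1, 0.20 in sham liver 3, 0.22 in VSG liver 5 and -0.21 in VSG liver 6. The exceptions were Clec4g in sham liver 3 (-0.02) and Pecam1 in VSG liver 5 (-0.36). Over the 45 pairs of markers, the correlation of these deviations across the 6 libraries had a median Pearson r of 0.59 and ran from -0.67 (Clec4g with Pecam1) to 0.99 (Stab1 with Lyve1), and 27 pairs had r above 0.5. With total counts alone the median r was 0.78. All points share the 6 libraries and their scaling, and the 3 deviations of each group sum to 0, so these coefficients are a description. Kdr and Flt4 had r = 0.55 and Stab1 and Stab2 had r = 0.53.

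**Figure D3:**
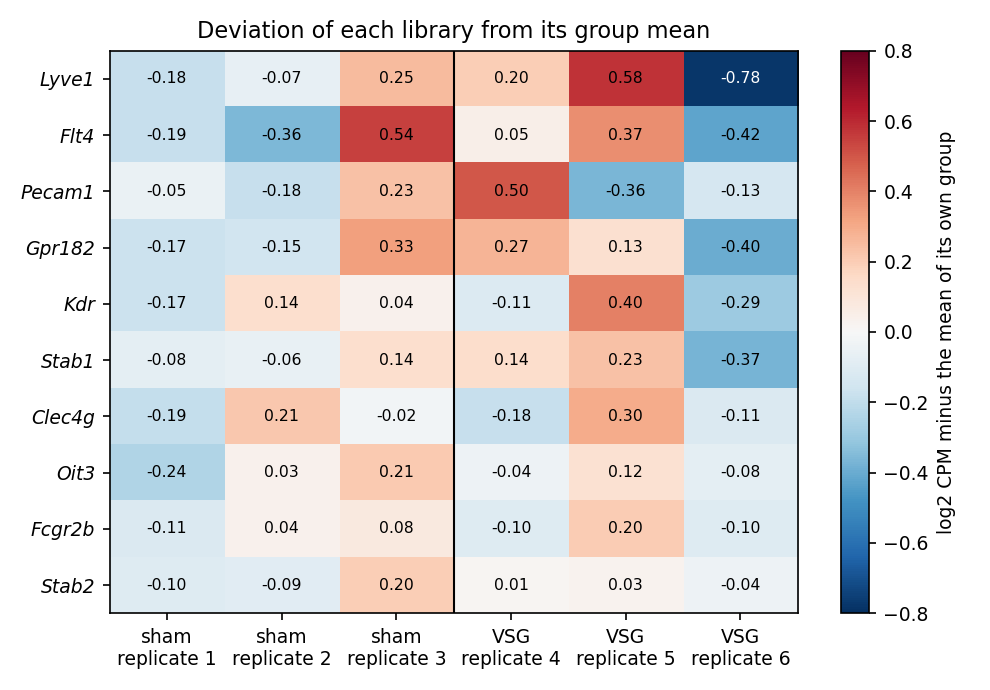
Log2 CPM of each marker minus the mean of its own group (colour and number), one column per library and one row per marker, ordered from the most variable marker at the top. With the TMM factors used here, sham replicate 1 and VSG replicate 6 are below 0 in every row (with total counts alone, sham replicate 1 is below 0 in 6 of 10 and VSG replicate 6 in 10 of 10), and the extreme is Lyve1 at -0.78 in VSG replicate 6.

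The pattern of the markers' mean standardized level over the 6 livers was most alike, among 12906 genes with a mean of at least 1 CPM, to that of Frat2 (r = 0.964), Auts2 (r = 0.959), Esam (r = 0.959), Robo4 (r = 0.954) and Mfsd4b4 (r = 0.950), each over 6 libraries. Esam and Robo4 encode endothelial cell surface proteins and belong to the list of 27 pan-endothelial genes, but that list as a whole was spread widely. Its r with the markers' mean had a median of 0.45 and ran from 0.959 for Esam down to -0.31 for S1pr1, with 3 genes below 0 and Cdh5, the junctional cadherin of endothelium, at 0.067. The summed level of the 10 markers was 446, 477 and 561 CPM in sham livers 1, 2 and 3 and 513, 562 and 425 CPM in VSG livers 4, 5 and 6. As a percent of the summed pan-endothelial list it was 89.4, 89.2 and 99.4 in the sham and 91.1, 101.6 and 98.1 in the VSG livers, and taken one by one on that scale all 10 markers still overlapped between groups. Stab2, for example, which is not in that list, stood at 15.9% to 18.4% of the list's sum in sham and at 17.6% to 22.05% in VSG livers.

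Other genes enriched in sinusoidal endothelium gave a mixed picture. Of 13 tested, 3 rose after VSG (background 6.79% of tested genes), 0 fell and 10 did not pass, and the median log2 difference was -0.13. Mrc1, the mannose receptor of sinusoidal endothelium and macrophages, was measured at 80.4, 74.9 and 78.2 CPM in the sham and at 123, 102 and 118 CPM in the VSG livers. All 3 VSG livers exceeded all sham livers, and the log2 difference was 0.55 ± 0.11 (adjusted p = 0.0233). Adam23, a disintegrin-family membrane protein, was measured at 25.2, 35.4 and 30.5 CPM in the sham and at 56.5, 51.3 and 57.4 CPM in the VSG livers and rose by 0.86 ± 0.14 (adjusted p = 0.0156). Plxnc1, a semaphorin receptor, rose by 0.32 ± 0.09, with an adjusted p of 0.0490 just inside the threshold. The Plxnc1 call held in 2 of 14 alternative analyses and ended without any 1 of the 6 libraries (adjusted p 0.0834 to 0.139). The Mrc1 call held in 8 of 14 and ended with total counts alone and without sham 1, 2 or 3 or VSG 4 or 6 (0.0518 to 0.111 without 1 library), and that of Adam23 in 12 of 14, ending without sham 3 or VSG 6 (0.0687 to 0.0833). The Kupffer cell list, which shares Mrc1 expression, summed to 467 to 936 CPM over the sham livers and to 902 to 2536 CPM over the VSG livers, and its part in the Mrc1 difference was not tested. The 10 genes that did not pass ran from -0.83 ± 0.38 for Ehd3, an endocytic trafficking protein (adjusted p = 0.173), to 1.07 ± 0.33 for Ptgs1, a cyclooxygenase whose groups did not overlap (adjusted p = 0.0726). The 95% intervals of Ptgs1 (0.29 to 1.86) and Cyp4b1 (0.024 to 0.77) lay above 0, and those of the other 8 included it.

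Of the 27 pan-endothelial genes, 1 rose (background 6.79% of tested genes), 0 fell (7.87%) and 26 did not pass, with a median log2 difference of -0.15. The groups did not overlap for 9 of the 27, beside 39.7% of all tested genes. Among the uncalled genes, the 95% intervals of Sox17 (0.31 to 1.45) and Cdh5 (0.062 to 1.02) lay above 0. Those of Emcn (-1.12 to -0.12) and Mmrn2 (-0.78 to -0.033) lay below it. The gene that rose was S1pr1, the receptor through which sphingosine 1-phosphate stabilizes endothelial junctions, at 44.6, 45.2 and 39.3 CPM in the sham and 54.4, 58.4 and 68.2 CPM in the VSG livers. Its log2 difference of 0.49 ± 0.12 (adjusted p = 0.0384) kept its call in 7 of 14 alternatives and lost it with total counts alone, with no filter beyond 1 count, and without sham 1, 2 or 3 or VSG 5 or 6 (0.0568 to 0.153). Among 11 genes that mark central, portal and arterial segments, 1 fell (background 7.87% of tested genes) and 0 rose. The gene that fell was Cdh13, a cadherin without a cytoplasmic part, at 3.36, 4.34 and 4.45 CPM in the sham and 1.72, 2.65 and 1.48 CPM in the VSG livers (-1.05 ± 0.27, adjusted p = 0.0481). Its call held in 8 of 14 alternatives, ending in limma on log2(FPKM + 1) and without sham 1, 2 or 3 or VSG 4 or 6 (0.0713 to 0.167 without 1 library). Of the uncalled segment genes, Wnt9b (-1.50 to -0.24) and Thbd (-0.70 to -0.094) had 95% intervals below 0. Kit (0.17 to 0.92) and Ntn4 (0.0077 to 0.76) had intervals above it. Of the 2 lymphatic genes tested, Mmrn1 rose from 0.406, 1.005 and 0.456 CPM to 1.72, 2.18 and 1.76 CPM (1.61 ± 0.39, adjusted p = 0.0397), a level far below that of the 10 markers. Its call held in 9 of 14 alternatives and ended without any 1 library but sham 2 (0.0641 to 0.157). Megakaryocytes also make Mmrn1, the platelet list summed to 3.29 to 4.40 CPM over the sham livers and to 5.13 to 13.1 CPM over the VSG livers, and its part in the Mmrn1 value was not tested.

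Of 11 genes of continuous capillaries and basement membrane, 3 fell (background 7.87% of tested genes), 0 rose and 8 did not pass, with a median log2 difference of -0.40. The sign was negative for 8 of the 11 and positive for 3, none of which passed. These were Cav1, Cd34 (0.81 ± 0.43, adjusted p = 0.231) and Vwf (0.02 ± 0.23, adjusted p = 0.965). Plvap, which forms the diaphragms of caveolae and of diaphragmed fenestrae and is low in mature sinusoids, was measured at 51.7, 58.5 and 61.5 CPM in the sham and at 25.9, 25.8 and 27.5 CPM in the VSG livers. Its highest VSG value was well below its lowest sham value, and the means of 57.2 ± 5.01 and 26.4 ± 0.968 CPM gave a log2 difference of -1.12 ± 0.10, or 0.461 times the sham level (adjusted p = 0.00371). The Plvap call held in all 14 alternatives, leaving out each library included, with adjusted p of at most 0.0288, and no other called gene of the endothelial lists kept its call in all of them. As a percent of the summed level of the 10 markers, Plvap was 11.6, 12.3 and 10.9 in the sham and 5.06, 4.59 and 6.48 in the VSG livers. Lamb1 and Lamc1, laminin chains of basement membrane, fell by 1.06 ± 0.22 (adjusted p = 0.0285) and by 0.66 ± 0.16 (adjusted p = 0.0421) on the log2 scale. Lamb1 lost its call without sham 1, sham 3 or VSG 6 (0.0695 to 0.119) and Lamc1 without sham 1, sham 3, VSG 4 or VSG 6 (0.0981 to 0.151). The calls held in 11 of 14 alternatives for Lamb1 and in 8 for Lamc1, which also lost its call with total counts alone and in limma on log2(FPKM + 1). Stellate cells also make laminins, and the 10 genes of the stellate list, of which 2 fell, summed to 799 to 1122 CPM over the sham livers and to 367 to 722 CPM over the VSG livers. Their part in the laminin differences was not tested. The 8 genes that did not pass ran from -0.73 ± 0.37 for Nid1, a basement membrane linker protein, to 1.25 ± 0.49 for Cav1, the caveolar coat protein. Cav1 had the largest difference in size of the list, opposite in sign to the 3 that fell, with a 95% interval of 0.077 to 2.43 (adjusted p = 0.129), and was highest in VSG liver 5 (13.6 CPM). The interval of Col4a2 (-1.07 to -0.088) also excluded 0, and those of the other 6 did not.

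Of 9 tested genes for ligands and other receptors of the VEGF and angiopoietin families, 2 rose, 1 fell and 6 did not pass. Vegfa, the ligand of Kdr, was measured at 98.9, 119 and 90.3 CPM in the sham and at 140, 172 and 156 CPM in the VSG livers, a rise of 0.60 ± 0.14 on the log2 scale (adjusted p = 0.0377). Nrp1, a co-receptor of Kdr, was measured at 61.3, 81.4 and 66.5 CPM in the sham and at 90.0, 189 and 157 CPM in the VSG livers (1.06 ± 0.27, adjusted p = 0.0468). Both sets of VSG values lay wholly above the sham values. Vegfb, a ligand of Flt1, was measured at 9.53, 12.5 and 12.3 CPM in the sham and at 5.43, 7.31 and 6.15 CPM in the VSG livers, a log2 difference of -0.86 ± 0.18 (adjusted p = 0.0267). Flt1 had a difference of -0.03 ± 0.19, and Vegfc and Vegfd, the ligands of Flt4, had differences of 0.0037 and -0.18. The Vegfa call ended without sham 1, sham 3, VSG 5 or VSG 6 (adjusted p 0.0656 to 0.153), that of Nrp1 without sham 1, 2 or 3 or VSG 5 or 6 (0.0734 to 0.165) and that of Vegfb without sham 2, sham 3, VSG 4 or VSG 6 (0.0609 to 0.115). Over the 14 alternatives the call held in 9 for Vegfa, which also lost it with total counts alone, in 6 for Nrp1, which also lost it with RLE size factors and with both limma fits, and in 10 for Vegfb.

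Among partners of the scavenging receptors, 0 of 5 tested hyaluronan genes passed. The enzymes and receptors with the most counts, Cd44 and Hyal2, had log2 differences of 0.70 ± 0.43 and 0.10 ± 0.12, and the hyaluronan synthases Has1, Has2 and Has3 were too low to test. Of the 5 other Fc receptor genes 0 passed, with -0.47 ± 0.20 for the neonatal receptor Fcgrt and 0.77 ± 0.37 for the common gamma chain Fcer1g. Fcgr3 had the largest difference of these 5, at 0.92 ± 0.28 (95% interval 0.27 to 1.58, adjusted p = 0.0672). Its groups did not overlap, and it was called in 3 of 14 alternatives. The differences of the 5 were positive for 3 and negative for 2. Of the 4 leukocyte adhesion genes tested 0 passed, with -0.32 ± 0.23 for Vcam1 and 1.43 ± 0.49 for Icam1, which was highest in VSG liver 4 (127 CPM). Of the 3 chemokines listed as ligands of Gpr182, 1 rose, 1 fell and 1 did not pass. Cxcl13 was measured at 1.07, 1.83 and 0.532 CPM in the sham and at 98.0, 9.32 and 78.8 CPM in the VSG livers, a rise of 5.78 ± 0.98 on the log2 scale (adjusted p = 0.0171). Cxcl10 was measured at 25.4, 14.1 and 12.8 CPM in the sham and at 4.52, 3.85 and 4.34 CPM in the VSG livers, a difference of -2.04 ± 0.29 (adjusted p = 0.0114), and Cxcl12, by far the most abundant, differed by -0.10 ± 0.29. The Cxcl13 call ended without sham 1, sham 3 or VSG 6 (0.0522 to 0.0899) and the Cxcl10 call without VSG 6 (0.0596). They held in 10 and 13 of 14 alternatives, and the Cxcl13 call was also lost in limma-voom.

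**Figure D4:**
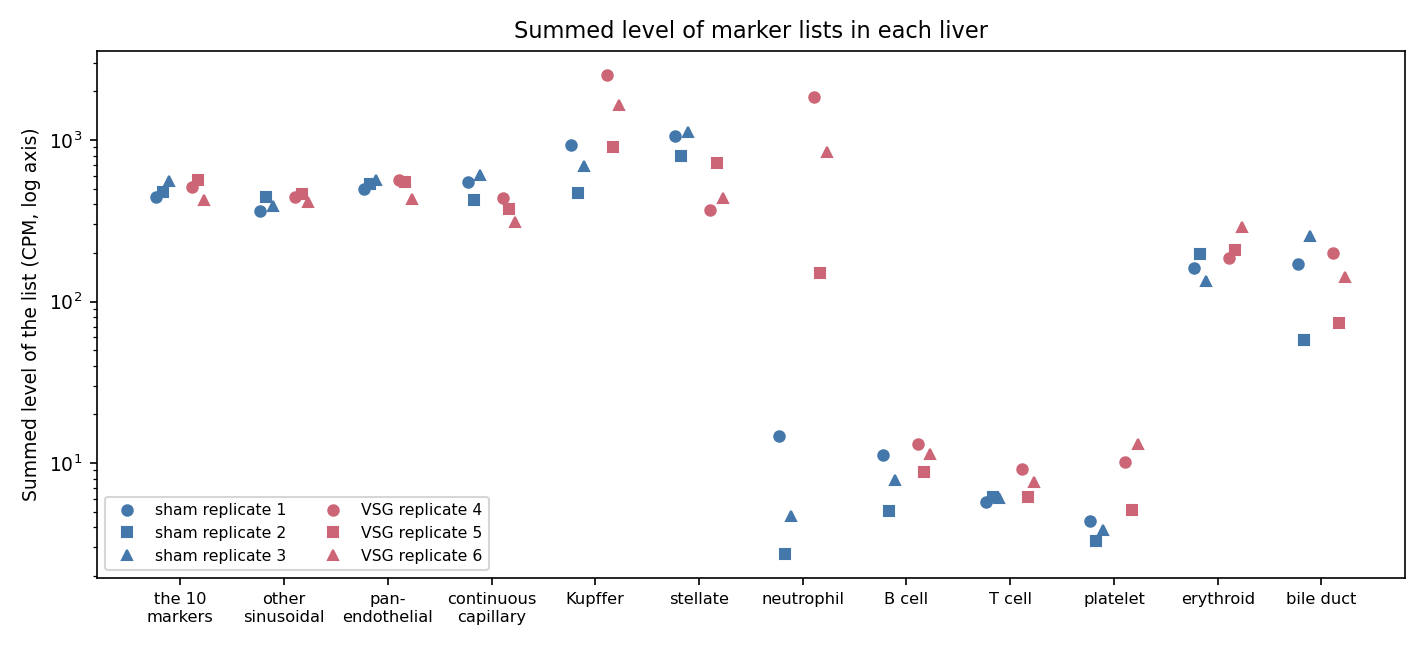
Summed CPM of each marker list (log axis) in each liver, blue for sham and red for VSG. The 10 sinusoidal markers and the pan-endothelial list overlap between groups, whereas the neutrophil list runs from 2.74 to 14.7 CPM in the sham livers and from 151 to 1836 CPM in VSG livers.

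The libraries held 22804397 to 24191778 counts each, with TMM factors of 0.897 to 1.15, and the hepatocyte genes Alb and Trf stood at 35830 CPM or more and 14370 CPM or more in every library, as the liver label requires. Among lists of other liver cells, all 10 neutrophil genes rose, with a median log2 difference of 6.98 (2 passed without sham 2, and 1 each without sham 3 and without VSG 6), and of 10 Kupffer cell genes 4 rose, led by Marco (4.96) and Timd4 (3.03). Of 10 stellate genes, Reln (-1.27) and Colec11 (-1.08) fell, and all 10 had negative differences. None of 6 B cell, 6 T cell, 7 erythroid or 7 hepatocyte genes passed, while 1 of 3 tested platelet genes (Ppbp, 3.10) and 1 of 5 bile duct genes (Sox9, 1.77) rose. The other 4 bile duct genes had negative differences that did not pass, and the median of that list was -0.76. Several of these calls ended in fits without 1 library. Those of Marco and Timd4 ended without sham 2, sham 3 or VSG 6 (adjusted p 0.0703 to 0.104), that of Reln without sham 1, 2 or 3 or VSG 6 (0.0648 to 0.123) and that of Colec11 without sham 3 (0.0512). The Ppbp call ended without sham 1, 2 or 3 or VSG 4 or 6 (0.0541 to 0.1247) and the Sox9 call without sham 1, 2 or 3 or VSG 6 (0.0794 to 0.116), and both were also lost in both limma fits. The part of these cells in the levels of the 10 markers, of Cxcl13 and of the other genes named was not tested.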

How the data were processed

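RNA-seq was performed by the authors on poly(A) RNA of 6 livers, and the deposited values are raw read counts per gene. Per the labels and the methods, reads were aligned with STAR 2.6.0 to mm10 and counted with featureCounts (2.0.3 in the submitters' processing notes; the methods name another version). Annotation, strand setting and treatment of multi-mapping reads are not given in the sources used here. Gene IDs were paired with GENCODE M21 symbols (55144 of 55385 IDs).

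The fit used edgeR 4.0.16 (filterByExpr with a minimum count of 10, TMM factors, quasi-likelihood test, Benjamini-Hochberg adjustment over 14454 genes, threshold 0.05), with R 4.3.3. Intervals at 95% came from the standard error and the fit's degrees of freedom. FPKM used the deposited exon length. Single genes in 3 against 3 libraries cannot pass below p = 0.1 in an exact permutation test, so the p-values rest on the model's shared spread. Replicates are taken as separate livers by their labels, and 3 counts, the limit that a count of 0 allows, equal 0.111 to 0.143 CPM (counting error only).

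The markers and all gene lists were chosen with earlier results of these data known. Named beside the 10 markers were up to 4 genes in each direction of each list past the threshold (6 for pan-endothelial and other sinusoidal genes), by size of the log2 difference with a mean of at least 0.5 CPM, or else the 2 with the highest mean, and the 5 most alike genes. Ehd3, Ptgs1, Cyp4b1, Nid1, Cav1, Cd34, Vwf, Col4a2, Flt1, Vegfc, Vegfd and Cxcl12 were added after their values were seen. So were Cdh5, Sox17, Emcn, Mmrn2, Wnt9b, Thbd, Kit, Ntn4 and Fcgr3. The alternatives were DESeq2 1.42.0, limma 3.58.1 (voom, and log2(FPKM + 1)), other scalings and filters, a larger prior count (2), and the omission of single libraries. The scripts were tested on simulated counts.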

Additional observations from a re-analysis of the deposited data

How the results depend on the processing

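No paired analysis was possible because the sham livers are numbered 1 to 3 and the VSG livers 4 to 6, so the groups share no number. In all 14 alternatives 0 of the 10 markers passed, and their smallest adjusted p in 140 fits was 0.108. The smallest unadjusted p in these fits was 0.0248, so the main fit's count of 0 at an unadjusted p under 0.05 did not hold in every alternative. Their median log2 difference ran from -0.082 to 0.11 over the single-library omissions. With total counts alone the sign turned for Stab1 (-0.065), Stab2 (-0.037), Fcgr2b (-0.10) and Gpr182 (-0.0068). Leaving out 1 library gave log2 differences of -0.073 to 0.23 for Stab1, 0.047 to 0.21 for Stab2, -0.79 to -0.16 for Lyve1, -0.011 to 0.29 for Clec4g, -0.30 to 0.091 for Kdr, 0.12 to 0.56 for Pecam1, -0.36 to -0.13 for Oit3, -0.091 to 0.090 for Fcgr2b, -0.51 to 0.040 for Flt4 and -0.0072 to 0.31 for Gpr182. The sign turned without VSG 5 for Stab1, Clec4g and Fcgr2b, without sham 1 for Fcgr2b, without sham 2, VSG 4 or VSG 6 for Kdr, without sham 3 for Flt4 and without VSG 4 for Gpr182.

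Over all genes DESeq2 called 3270 (1521 higher and 1749 lower), total counts alone called 486 higher, and leaving out 1 library gave 159 to 2732 (48 to 1310 higher and 111 to 1422 lower), with the fewest without sham 3 (159) and VSG 6 (210). DESeq2 called 2 pan-endothelial, 2 segment, 1 Fc receptor, 1 adhesion, 6 stellate, 1 erythroid and 3 hepatocyte genes. With no filter beyond 1 count the numbers were 0 pan-endothelial, 1 Fc receptor, 4 stellate and 1 erythroid, and with 10 counts in every library 2 pan-endothelial, 2 segment and 2 neutrophil (fewer genes tested). Total counts alone left 1 other sinusoidal and 0 pan-endothelial genes, limma-voom 1 chemokine, 4 neutrophil, 0 platelet and 0 bile duct genes, and limma on log2(FPKM + 1) 0 segment, 0 platelet and 0 bile duct genes. Leaving out 1 library gave 0 to 4 calls for other sinusoidal genes, 0 to 1 for pan-endothelial, lymphatic, platelet, bile duct and hepatocyte genes, 0 to 3 for segments, 1 to 4 for continuous capillary genes, 0 to 2 for the VEGF, Fc receptor, chemokine and adhesion genes, 0 to 5 for Kupffer and stellate genes and 1 to 10 for neutrophil genes. Apart from the smaller numbers of genes or libraries, the cause was not tested. The 95% intervals of the markers, set by 3 livers per group, give the differences these data leave possible.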
